A study of Macaca mulatta with 28 samples.

Results

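The genes described here encode the proteins of the cytosolic ribosome, and they were taken by name: symbols that begin with RPL or RPS followed by a number, the acidic stalk proteins RPLP and the laminin receptor precursor RPSA, without the RPS6K kinases. Of the 16885 rows of the count table with a gene symbol, 67 carried such a name, and 65 of these had at least 5 counts in at least 3 animals, 38 of the large subunit and 27 of the small subunit. They stand among 13769 transcripts that passed the same filter. The choice used names and this filter and no measured difference between groups, but it was made with earlier results of these data known.

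RNA had been sequenced from punches of the ventral tegmental area (VTA) of 28 adult male rhesus macaques labelled wild type, with 1 library per animal. The 17 drinkers had voluntarily drunk ethanol at 4% (w/v) in daily 22 h open-access sessions for 12 months, then through alternating abstinence and renewed access, and tissue was collected after the last of 3 abstinence periods of 30 days. The 11 controls were either yoked to the drinkers for calories or kept as housing controls, which the labels do not tell apart, and they were trained on the same panels. By the study's account the animals came in 2 cohorts, the first with 8 of the drinkers and 8 of the controls and the second with the other 9 drinkers but only 3 controls. The labels class the drinkers as very heavy (9 animals), heavy (5), binge (2) and low (1).

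The cytosolic ribosome is built from ribosomal RNA and a large set of proteins whose genes are scattered over the genome, and most of these proteins are needed in equal copy number in each particle. Their mRNAs are short and abundant, and they typically begin with a C followed by an unbroken run of pyrimidines, the terminal oligopyrimidine (TOP) tract, through which the mTORC1 kinase and the protein LARP1 regulate their translation and stability together with those of elongation factors. In neurons, ribosomes made in the cell body supply dendrites and axons, and local protein synthesis takes part in lasting synaptic change.

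Libraries held 12303914 to 27338669 counts after rounding, and transcripts of the mitochondrial genome took 36.4% to 60.6% of them, so levels are given as normalised CPM, that is counts scaled to a common library size by the trimmed mean of M values (TMM), and sums as a percentage of the counts that were not mitochondrial. All 13 dopamine neuron markers were measured, but their summed share ran from 0.0093% to 0.381% of non-mitochondrial counts, so the punches held very different amounts of dopamine neuron RNA. In such bulk tissue, fewer cells of a type and less RNA per cell cannot be told apart. A gene's value is that of the 1 transcript listed for its symbol. Ribosomal protein genes have many near-identical processed pseudogenes, so how Salmon divided reads among copies is uncertain for every member.

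The TOP tract was looked for in 30 bases around the annotated start of 1 transcript per gene (the first by accession, curated ones before predicted ones), 15 before it and 15 from it on, in RefSeq's annotation of Mmul_10, the build to which the authors aligned. The motif was a C followed by at least 6 letters that are each C or T, on the strand of the gene. It was present in 34 of the 62 members with a matched RefSeq gene (54.8%), against 14.8% of the 13253 transcripts with a window of the same length. In 22 of 37 large subunit genes (59.5%) and 12 of 25 small subunit genes (48.0%) the window held it, whereas nuclear oxidative phosphorylation genes had it in 15.0%, mitochondrial ribosomal protein genes in 13.6% and initiation factors in 17.1%. Of the 20 other TOP mRNAs 9 held it (45.0%), a share close to that of the members, and the windows of NACA, FAU and RACK1, described further on, did not. Since annotated starts can be off, and a gene's other transcripts can start elsewhere, a window without these letters says nothing of the mRNA's true first base. To show the feature, windows are given for members that hold it and are abundant or described again further on, for RPS27L, whose window lacks it, and for EEF1G, a TOP gene without a ribosomal protein name, with the longest stretch that fits the motif in capitals.
RPSA, chr2:94850922-94850951, plus strand: CTCCTTTCCgcgctacctacagaagggtcc
RPL7A, chr15:4910136-4910165, minus strand: atattacccacaattCCCTTTTCTTTCTCT
RPL13A, chr19:49442989-49443018, plus strand: CCTTTCCCaggcggctgccgaagatggcgg
RPL9, chr5:38579528-38579557, minus strand: atgacgaaagacgttCTTTCTTTgctgcgt
RPL5, chr1:131348081-131348110, minus strand: gtggccgacgCCTTCTCTCTTCCacacgtc
RPL10, chrX:150319615-150319644, plus strand: caggcgtgggagcgCCCCTTTCCCTTCggc
RPL39, chrX:116077092-116077121, minus strand: ccgcctgCTTCCCCCCTCTTTTCCTTTCTC
RPLP1, chr7:46167083-46167112, plus strand: taggcgcaagaaCCTCTTTCCTCagctgtc
RPS27L, chr7:39601824-39601853, minus strand: ctcccagccgcctctatcccggaagttgat
EEF1G, chr14:11629419-11629448, plus strand: aCCCCCTTTCTTTgcggaatcaccatggcg
RPL7A and RPL9 showed the tract from the annotated first base on, while in RPSA and RPL13A it lay at the upstream end of the window. RPS27L, a paralogue of RPS27 that is known as a target of the tumour suppressor p53, had no stretch in its window that fits the motif, and this window lies inside the gene's annotated span, at the start of the chosen transcript.

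The first question was how much ribosomal protein mRNA the VTA holds and how evenly it is spread over the members. Summed over the 65 members, ribosomal protein transcripts made up 2.94% ± 0.343 (SD, n = 28) of non-mitochondrial counts, from 2.27% in drinker 3 to 3.79% in drinker 9. The members lay on 18 chromosomes, with 11 of 62 on chromosome 19, and were short, with a median RefSeq length of 669 bases against 2850 for all transcripts tested. Their GC content, with a median of 50.5%, was close to that of all transcripts (50.2%).

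Per kilobase of RefSeq length, which need not be that of the Ensembl transcript counted, the median member stood at 333 normalised CPM, compared with 2.38 for all transcripts tested. The highest level per length belonged to RPS20, at 843 ± 140 CPM per kilobase (SD, n = 28), and RPSA, at 791 ± 136, was also among the highest. Both are proteins of the small subunit, and RPSA is also known as a precursor of a laminin receptor at the cell surface. These values differed by less than their spread between animals, and RPL9 stood at 648 ± 79.8. The medians of the subunits lay close to each other, at 304 CPM per kilobase for the large and 347 for the small subunit. Of the 57 members with a mean of at least 20 CPM and a RefSeq length, 41 lay between 100 and 500 CPM per kilobase, as the plot of levels per length shows.

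**Figure D1:**
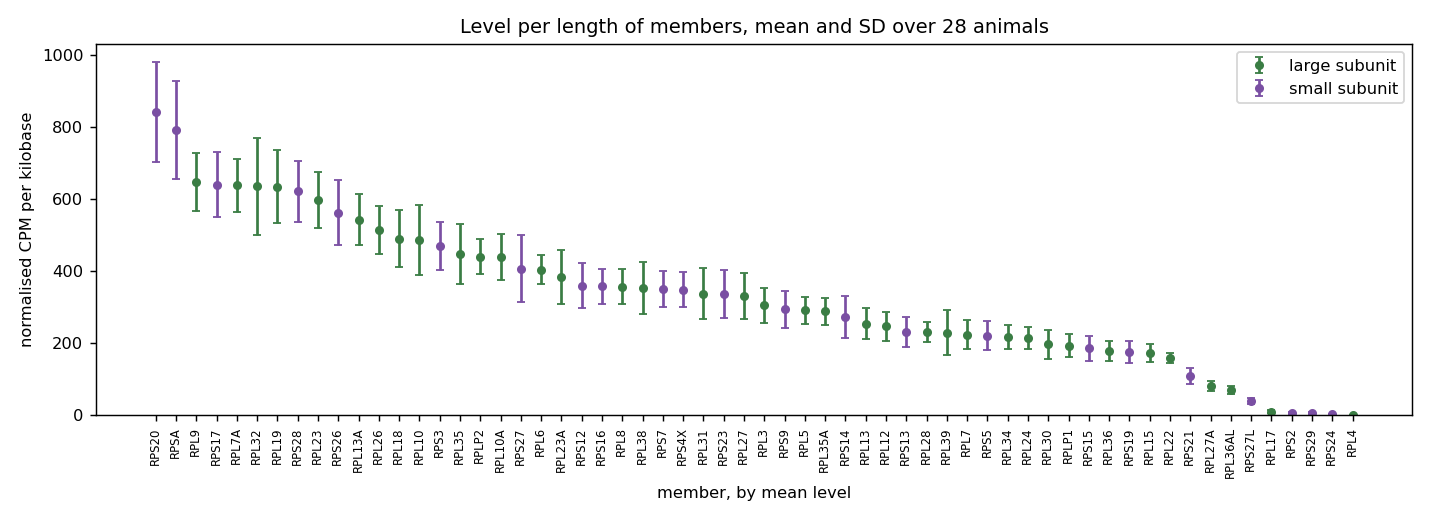
Mean normalised CPM per kilobase of RefSeq length (vertical axis) for the members shown, each with a matched RefSeq gene, in order of level (horizontal axis); bars are the SD over 28 animals and colours mark the subunit. Levels fall gradually from 843 in RPS20 to 109 in RPS21 and then drop, with RPS27L at 38.5 and the last 5 members near 0.

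In CPM without regard to length, RPSA was highest at 810 ± 139 (SD, n = 28), and RPL13A (632 ± 83.7), RPL7A (566 ± 65.8) and RPL9 (514 ± 63.3) came next. RPL13A leaves the ribosome in myeloid cells to silence inflammatory mRNAs, and RPL7A is a core protein of the large subunit. The 7 members RPL4, RPS24, RPS29, RPS2, RPS27A, RPL17 and RPL37A had listed transcripts with a mean under 20 CPM. RPL4, a core protein of the large subunit, was listed at 0 in 21 animals and reached at most 33 counts (drinker 6). RPS29 was at 0 in 5 animals, RPS24 in 4 and RPL17 in 1, and a count of 0 allows up to 3 counts, or 0.112 to 0.238 CPM depending on the library. A ribosome needs each of these proteins, but the values are those of 1 listed transcript, and other transcripts of these genes were not analysed here. The rows RPL3L and RPL10L, paralogues known from striated muscle and testis, missed the filter, with 4 counts in 1 animal for the first and 3 counts in 2 animals for the second.

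RPS27L and RPL36AL are paralogues that arose by duplication. RPS27L stood at 28.9 ± 5.83 CPM (SD, n = 28) and its partner RPS27 at 198 ± 45.7. RPL36AL, a close relative of RPL36A, stood at 37.6 ± 5.85 CPM, while RPL36A itself was not analysed here. The partners RPL39 and RPL10 stood at 70.5 ± 19.1 and 364 ± 72.8 CPM, and RPL3, the partner of RPL3L, at 391 ± 62.3. Both RPS27L and RPL36AL were thus well below the typical member, whose median was 199 CPM.

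Members moved together from animal to animal. Over the 2080 pairs of members, the median correlation of log2 CPM (with 0.5 added) across the 28 animals was 0.592, and 94.1% of pairs were positive. The same median was 0.313 for 66 nuclear oxidative phosphorylation genes, 0.165 for 37 proteasome subunits, 0.119 for 67 mitochondrial ribosomal proteins, 0.009 for 36 translation initiation factors and 0.022 for 71 ribosome assembly factors. Markers of 2 cell types came close to the members, with 0.589 for 13 dopamine neuron markers (89.7% of pairs positive) and 0.565 for 9 microglia markers. It was 0.149 for the 20 TOP mRNAs without a ribosomal protein name and −0.019 for 10 elongation factors. Markers of the other cell types lay between 0.092 and 0.195. These are descriptions over 28 libraries that share their depth and normalisation, and members also had higher counts than the genes of some other lists, with a median level of 199 CPM against 74.8 for oxidative phosphorylation genes and 28.7 for mitochondrial ribosomal proteins, which leaves less counting error in their values. Within cohort 1 the median was 0.611 and within cohort 2 0.629. In drinkers it was 0.658 and in controls 0.48, a difference that was not tested. The median coefficient of variation between animals was 16.3% for members against 38.9% for all transcripts tested. The latter had a median level of 6.88 CPM. Low variation was not particular to the members. The median was 14.25% for TOP mRNAs, 14.8% for initiation factors, 14.9% for proteasome subunits and 15.5% for elongation factors. It was 15.7% for mitochondrial ribosomal proteins, 18.45% for oxidative phosphorylation genes and 19.8% for assembly factors.

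The summed shares of the large and the small subunit followed each other closely (Pearson's r = 0.983, Spearman's rho = 0.968 over 28 animals, r = 0.974 without the 2 animals farthest from the median share). The ratio of large to small subunit counts stayed between 1.39 and 1.56 in all 28 animals. Set against the sum of all other members, 52 of the 65 had an r above 0.5, led by RPS13 (0.953) and RPS12 (0.927), both of the small subunit. RPS19 and RPL5, which are mutated in Diamond-Blackfan anaemia, and RPL10, which joins the large subunit last, had r values of 0.894, 0.827 and 0.887. The other extreme was formed by 8 members that fell below 0.3: RPL17 (−0.152), RPL36AL (0.079), RPL27A (0.136), RPS2 (0.158), RPL28 (0.165), RPL22 (0.26), RPS27A (0.274) and RPL4 (0.277). Of these, RPL4, RPL17, RPS2 and RPS27A are among the members with a mean under 20 CPM, but RPL22 (280 CPM) and RPL28 (115 CPM) were well measured. RPL22 had the lowest coefficient of variation of all members at 9.24%.

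Many other mRNAs of the TOP class, though not all, followed the members from animal to animal. The list held 20 such genes without a ribosomal protein name. Gene by gene, 15 of the 20 had a positive r with the members' share, with a median of 0.505. Their summed share correlated with that of the members at r = 0.827 (rho = 0.704, r = 0.804 without the 2 farthest animals, 0.791 in cohort 1 and 0.898 in cohort 2, n = 28). The corresponding r was 0.684 for elongation factors, 5 of which are also in the TOP list, 0.423 for proteasome subunits, 0.381 for nuclear oxidative phosphorylation genes, 0.349 for mitochondrial ribosomal proteins, 0.221 for initiation factors and −0.132 for ribosome assembly factors. Without the 2 farthest animals it was 0.684 for elongation factors, 0.317 for proteasome subunits, 0.192 for oxidative phosphorylation genes, 0.245 for mitochondrial ribosomal proteins, 0.169 for initiation factors and −0.146 for assembly factors, and for the last 5 of these lists rho was 0.293, 0.165, 0.147, 0.267 and −0.120 in that order. The assembly factors differed between the cohorts, at 0.083 in cohort 1 and −0.603 in cohort 2. Among markers of cell types, r was 0.367 for oligodendrocytes (0.222 in cohort 1, 0.711 in cohort 2 and 0.337 without the 2 farthest animals) and 0.193 for microglia (0.034, 0.400 and 0.348). It was 0.254 for endothelial markers (0.166, 0.537 and 0.091), 0.001 for dopamine neuron markers (0.072, −0.171 and 0.045), −0.188 for neuron markers (−0.194, −0.412 and −0.171, with a rho of −0.404) and −0.198 for astrocyte markers (−0.198, −0.138 and −0.252). The part of these cells in the members' share was not tested. Total counts had an r of −0.169 (−0.12 in cohort 1, −0.321 in cohort 2 and 0.003 without the 2 farthest animals). The mitochondrial share had −0.157 (−0.212, −0.041 and −0.191). Of the 20, 12 (60.0%) lay above the 90th percentile of r among the 13704 transcripts that are no members, an r of 0.32, as did 45.9% of proteasome subunits, 34.8% of oxidative phosphorylation genes, 25.4% of mitochondrial ribosomal proteins, 27.8% of initiation factors and 4 of the 10 elongation factors. The elongation factors were split, with 5 of 10 above 0 and a median of 0.051, so the r of their summed share is not that of the typical gene of the list. Among the highest were NACA (0.897), FAU (0.89), RACK1 (0.874) and EEF1G (0.869).

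FAU encodes a ribosomal protein fused to a ubiquitin-like protein, and RACK1 is a scaffold that binds the small subunit, so the list is not wholly outside the ribosome. Without its genes that encode parts of the ribosome the summed share of the list gave r = 0.765, and without the elongation factors as well r = 0.572 (0.413 without the 2 farthest animals). NACA is a subunit of the complex that meets nascent chains at the ribosome, and EEF1G is a subunit of the elongation factor that reloads EEF1A1. The list was not uniform, and 5 of the 20 had a negative r: VIM, which encodes the glial and endothelial filament protein vimentin (−0.351), IPO7, a nuclear import receptor (−0.287), EEF1D, a subunit of the same elongation factor as EEF1G (−0.208), HNRNPA1, an RNA-binding protein of the nucleus (−0.103), and NAP1L1, a histone chaperone (−0.028).

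**Figure D2:**
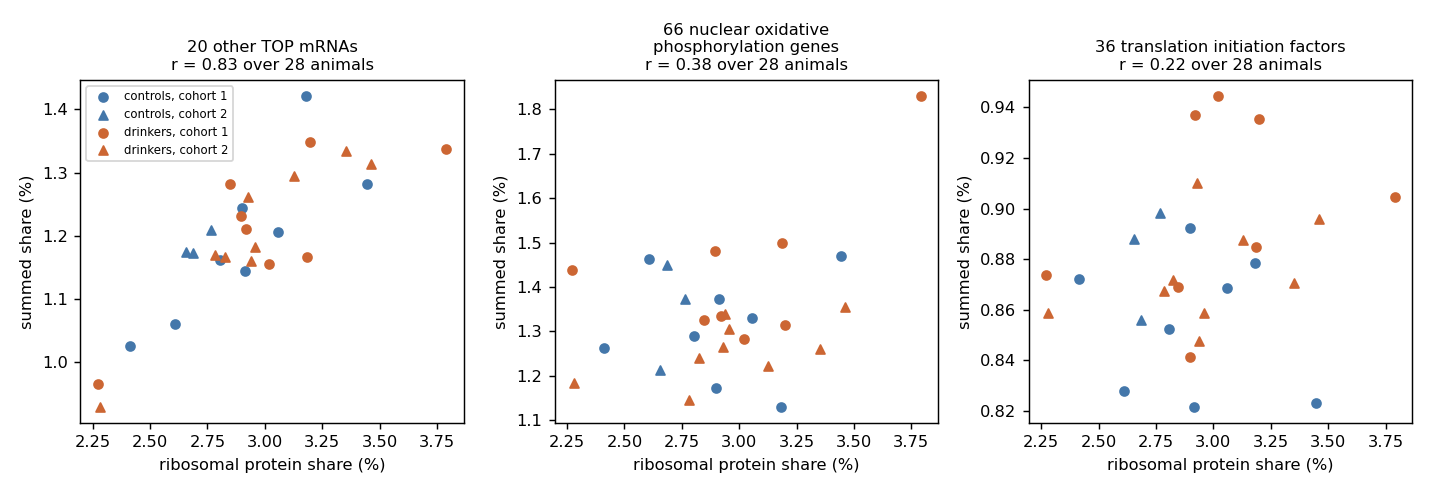
Summed share of 3 gene lists (vertical axes, % of non-mitochondrial counts) against that of the 65 members (horizontal axes, %), 1 point per animal, with colour for group and shape for cohort; vertical axes do not start at 0. The TOP mRNAs rise with the members (r = 0.83), while oxidative phosphorylation genes (r = 0.38) and initiation factors (r = 0.22) scatter more widely.

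The main comparison asked whether these genes differed between drinkers and controls after 30 days without alcohol. The summed share was 2.99% ± 0.373 (SD, n = 17) in drinkers, with a lowest value of 2.27%, a median of 2.94% and a highest of 3.79%. In controls it was 2.86% ± 0.289 (SD, n = 11), with a lowest of 2.41%, a median of 2.81% and a highest of 3.45%. Taken over both cohorts, the ranges overlapped almost fully and the difference was smaller than the spread between animals. Within cohort 1 the means were 3.02% ± 0.426 in drinkers and 2.92% ± 0.323 in controls (SD, n = 8 each), and within cohort 2 they were 2.96% ± 0.344 (SD, n = 9) and 2.70% ± 0.0564 (SD, n = 3). By drinking class the mean was 3.10% ± 0.430 in the 9 very heavy, 2.83% ± 0.340 in the 5 heavy and 2.86% ± 0.109 in the 2 binge drinkers, and 3.02% in the 1 low drinker. The values of each class lay inside or overlapped the range of the controls. In cohort 1 the ranges of drinkers and controls overlapped, but in cohort 2 the 3 controls lay between 2.66% and 2.77%, and 8 of the 9 drinkers lay above all of them while drinker 16 lay below, at 2.28%. The ratio of large to small subunit counts in cohort 2 was 1.46 to 1.51 in the 3 controls, and 8 of the 9 drinkers lay below all of them. The plot of shares by animal shows both.

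**Figure D3:**
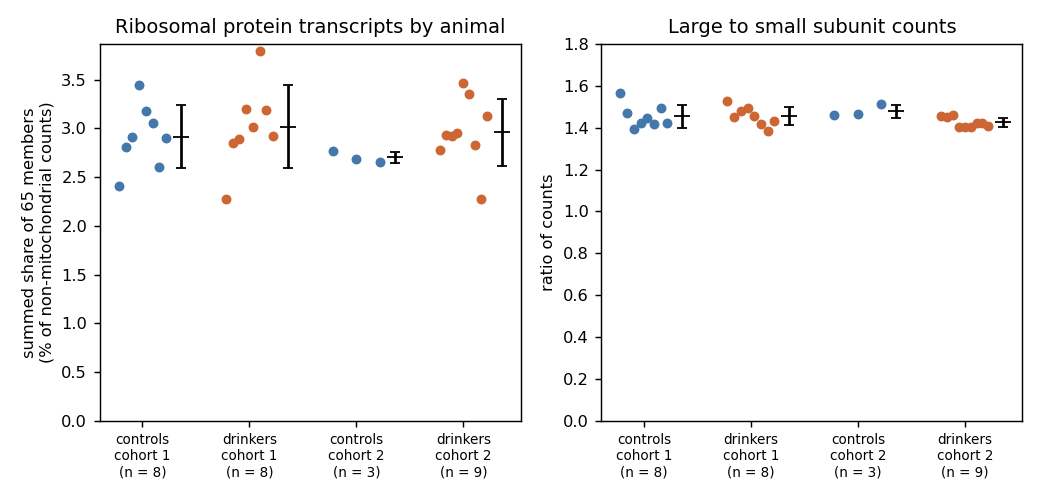
Summed share of the 65 members (left, % of non-mitochondrial counts) and ratio of large to small subunit counts (right) for each animal by group and cohort; points are animals, and bars beside them give the mean and SD. In cohort 1 drinkers and controls overlap in both panels, whereas in cohort 2, with 3 controls, 8 of 9 drinkers lie above all controls in share and 8 of 9 below all controls in ratio.

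Across 17 drinkers and 11 controls, 0 of the 65 members had an adjusted p under 0.05 in edgeR's quasi-likelihood test with Benjamini-Hochberg adjustment over all 13769 transcripts, as against 0% of all transcripts. An unadjusted p under 0.05 was found for 7 members (10.8%), all higher in drinkers, beside 4.57% of all transcripts in either direction and 2.52% in that direction, and DESeq2's Wald test gave 0 and 10 (0.0581% and 4.26% of all transcripts). The count of 7 moved with single animals, to 4 without control 3 (6.2% beside 4.3% of all transcripts), 11 without control 4 (16.9% beside 3.9%) and 12 without drinker 3 or without drinker 16 (18.5% beside 4.5% and 4.9%). This fit leaves out the cohorts, which hold unequal numbers of controls, and with cohort as a covariate the count was 11 (16.9% beside 7.1%). The fitted log2 fold change was above 0 for 54 of the 65 (83.1%), beside 50.3% of all transcripts, with a median of 0.08 beside 0.00. Both subunits took part, with 31 of 38 large and 23 of 27 small subunit members above 0 and medians of 0.08 each. Since members moved together between animals, these 65 signs are not independent observations. Markers of other cell types were shifted as well: 11 of 13 dopamine neuron markers (median −0.26), 7 of 9 oligodendrocyte markers (−0.21) and 7 of 9 microglia markers (−0.10) had a fitted value below 0, and 8 of 9 neuron markers (0.16), 6 of 8 astrocyte markers (0.09) and 5 of 8 endothelial markers (0.06) above it. The astrocyte median was thus near that of the members, and 1 of the 8 had an unadjusted p under 0.05. The summed shares of these lists overlapped between the groups, with 0.0093% to 0.350% in drinkers and 0.0095% to 0.381% in controls for dopamine neuron markers, and 2.46% to 4.06% and 2.51% to 4.22% for oligodendrocyte markers. Microglia markers ran from 0.0415% to 0.122% and from 0.0749% to 0.116%, and neuron markers from 0.792% to 5.01% and from 0.739% to 2.42%. For astrocyte markers the share was 0.841% to 1.11% in drinkers and 0.749% to 1.04% in controls, and for endothelial markers 0.0632% to 0.134% and 0.0729% to 0.113%. The part of these cells in the members' values was not tested. Over the other settings for all animals, from 47 of 65 (limma-voom) to 59 of 65 (GC correction, cohort as a covariate or cohort 2 alone) were above 0. The share of all transcripts above 0 moved with the setting. It was 43.5% with limma-voom, 54.2% with GC correction, 48.5% with cohort as a covariate and 52.8% in cohort 2 alone. The members' median lay between 0.05 and 0.14.

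The lowest p-values in all animals belonged to RPL37A, RPL30, RPS27L, RPL38, RPL36 and RPL17, all but RPS27L of the large subunit, and each had an adjusted p of 1.00 in edgeR. RPL38, which favours translation of certain developmental mRNAs (chromosome 16 of Mmul_10, 70538026 to 70544194), lay between 93.4 and 230 CPM in drinkers (median 144) and between 111 and 138 in controls (median 126). All controls lay inside the range of the drinkers. Its log2 fold change was 0.23 (SE 0.10). RPL30, which like RPL38 is a small protein of the large subunit, ran from 65.2 to 171 CPM in drinkers (median 107) and from 74.3 to 112 in controls (median 88.1), a log2 fold change of 0.25 (SE 0.10). Here too the drinkers spread beyond the controls on both sides. RPL36 (66.8 to 123 CPM in drinkers, 70.3 to 108 in controls) differed by 0.18 (SE 0.080).

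Of these 6, RPL37A and RPL17 had the largest fitted differences, and both are at low level. RPL37A ran from 1.04 to 28.9 CPM in drinkers (median 20.1) and from 0.613 to 20.9 in controls (median 10.8), a log2 fold change of 0.87 (SE 0.35). RPL17 ran from 0 to 11.9 CPM in drinkers (median 6.95) and from 0.353 to 6.58 in controls (median 2.57), a log2 fold change of 1.02 (SE 0.46). In both genes the groups overlapped, and drinkers held both the highest values and some of the lowest. For RPL17 the listed transcript took 0.0359% of the members' counts, so it hardly enters the summed share.

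Taken cohort by cohort, these 6 members had a positive fitted value in each. They were chosen by their p-values over these same animals, so the sign in each cohort is no independent support. Of all 65 members 50 were above 0 in cohort 1 and 59 in cohort 2 alone, beside 49.3% and 52.8% of all transcripts. In cohort 1 the log2 fold change was 0.42 for RPS27L, 0.33 for RPL38, 0.30 for RPL30, 0.21 for RPL36, 1.10 for RPL37A and 1.24 for RPL17, and in cohort 2 it was 0.13, 0.19, 0.23, 0.25, 0.46 and 0.67 in the same order. Their lowest adjusted p in cohort 2, with 3 controls, was 0.999 in edgeR's test. The lowest values among the 65, over all animals, were those of RPS2, at −0.20 (SE 0.24), a member under 20 CPM, and RPS15, at −0.13.

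Members named for their known roles, whatever their values, had these fitted differences over all animals. RPL5, which with RPL11 restrains the p53 ligase MDM2, had a log2 fold change of 0.08 (SE 0.071), RPS19 of 0.00 (SE 0.099) and RPL10 of 0.00 (SE 0.12). The stalk proteins RPLP1 and RPLP2, which recruit elongation factors to the ribosome, had 0.00 (SE 0.092) and 0.02 (SE 0.064). RPSA, the most abundant, had 0.09 (SE 0.096), with 540 to 1129 CPM in drinkers and 558 to 989 in controls. RPS6, RPL11 and RPLP0 were not analysed here.

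The translation machinery around the ribosome was measured too. Of 10 elongation factors 0 passed in edgeR's test, and 1 had an unadjusted p under 0.05, and of 36 initiation factors 0 passed and 1 did. The medians were 0.01 and 0.04. Of the 20 TOP mRNAs without a ribosomal protein name, 13 were above 0 with a median of 0.02, of 71 ribosome assembly factors 49 with a median of 0.06, and of 67 mitochondrial ribosomal proteins 43 with a median of 0.03. Of 66 nuclear oxidative phosphorylation genes 41 were above 0, with a median of 0.03, and of 37 proteasome subunits 19, with a median of 0.00, and 0 of each list passed.

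**Figure D4:**
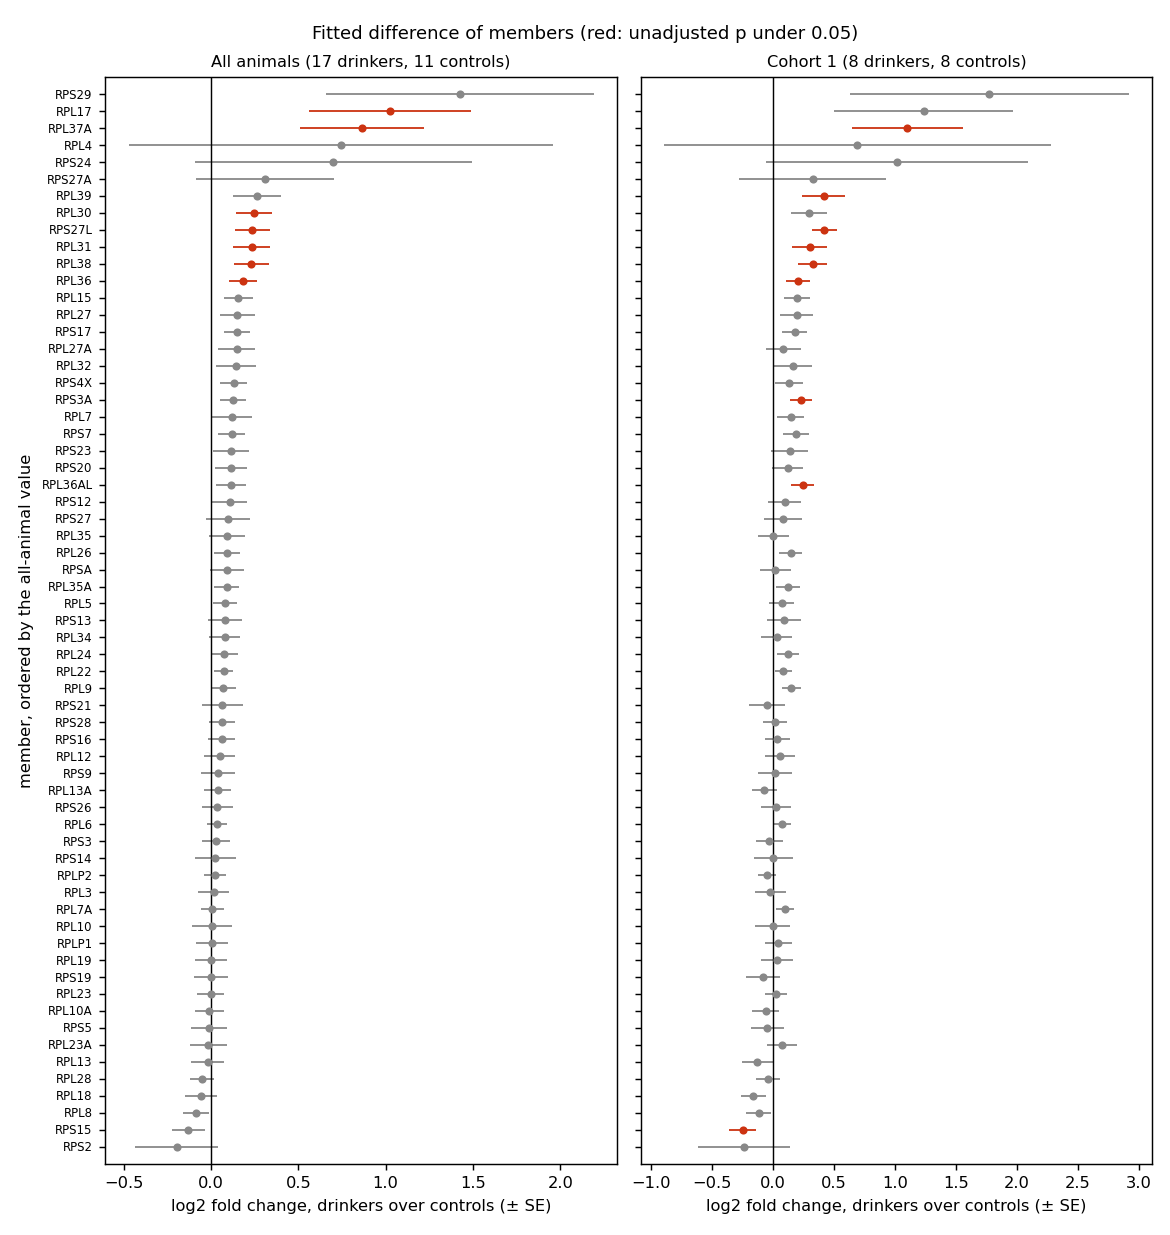
Fitted log2 fold change of drinkers over controls with its SE (horizontal axes) for the members shown (vertical axis) in all animals and in cohort 1; red marks an unadjusted p under 0.05 in edgeR's test, and the panels have different horizontal scales. Most members sit slightly above 0 in all animals and in cohort 1, and those with wide bars are members of low level.

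Cohort 1, with 8 drinkers and 8 controls, is the balanced part of the study. None of the 65 members passed there (0 of 65, while 0.0364% of all 13746 transcripts did in edgeR's test), and 9 (13.8%) had an unadjusted p under 0.05, 8 of them higher in drinkers and 1 lower, beside 11.6% of all transcripts, 5.35% higher and 6.29% lower. DESeq2's Wald test called 1 member, RPS27L, where it called 1.7% of all transcripts. The fitted value was above 0 for 50 of the 65 (76.9%) beside 49.3% of all transcripts, and their median was 0.08 beside −0.01 over all transcripts. Other lists were shifted in the same direction in this cohort, so the shift is not particular to the members: 50 of 66 oxidative phosphorylation genes (75.8%, median 0.15), 28 of 37 proteasome subunits (75.7%, 0.09), 15 of 20 TOP mRNAs (75.0%, 0.07) and 47 of 67 mitochondrial ribosomal proteins (70.1%, 0.10) were above 0. An unadjusted p under 0.05 was found for 23.9% of the mitochondrial ribosomal proteins and 19.7% of the oxidative phosphorylation genes. The count of 9 changed with single animals. It rose to 19 without drinker 3, the animal with the lowest share (29.2% beside 11.7% of all transcripts). Without control 3 it was 4 (6.2% beside 11.2%), without control 8 it was 5 (7.7% beside 10.3%) and without drinker 10 it was 5 (7.7% beside 10.7%). Without drinker 9, which had the highest share, 36 of 65 members (55.4%) were above 0, near the 49.4% of all transcripts, and the median was 0.03. Drinkers of cohort 1 also had fewer transcripts with a count (10554 to 11898) than its controls (11718 to 12550). Of 9 neuron markers that passed the filter 8 had a fitted value above 0, with a median of 0.52, and their summed share, mostly neurofilament and SNAP25 counts, ran from 1.01% to 5.01% in these drinkers and from 0.739% to 2.42% in the controls, while the listed transcripts of RBFOX3 and SYN1 were at 0 in 27 and 26 of the 28 animals. Of 13 dopamine neuron markers 11 were below 0 (median −0.29), as were 7 of 9 oligodendrocyte (−0.24), 6 of 9 microglia (−0.12) and 5 of 8 endothelial markers (−0.07), while 6 of 8 astrocyte markers were above it (0.07). The part of any of these in the members' values was not tested.

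RPS27L had the lowest p of all members in cohort 1. It lies on chromosome 7 of Mmul_10 (39598417 to 39602137) and lay between 27.2 and 43.7 CPM in drinkers (median 35.7) and between 20.6 and 30.4 in controls (median 27.3). Of the 8 drinkers, 7 lay above every control of the cohort. The log2 fold change was 0.42 (SE 0.10), with an adjusted p of 0.159 in edgeR's test, and leaving out single animals gave values from 0.37 to 0.47. In cohort 2 its drinkers ran from 22.0 to 31.1 CPM and its controls from 22.7 to 26.1, and the log2 fold change within that cohort was 0.13. RPS27 itself, the partner, differed by 0.08 (SE 0.16) in cohort 1.

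RPL36AL, the other paralogue (chromosome 7, 111808427 to 111810397), ran from 35.7 to 51.3 CPM in drinkers of cohort 1 and from 29.9 to 43.2 in its controls, a log2 fold change of 0.25 (SE 0.095, adjusted p = 0.303 in edgeR's test). RPL38 had 0.33 (SE 0.12), RPS3A, a small subunit protein, 0.23 (SE 0.088), RPL39, which lines the exit tunnel for nascent chains, 0.42 (SE 0.18), and RPL37A 1.10 (SE 0.46). Their adjusted p-values in edgeR's test lay between 0.287 and 0.348. The groups overlapped for each of them. The single member with a lower value and an unadjusted p under 0.05, RPS15, named after its values were seen, had −0.25 (SE 0.11). The plot of single members by animal shows the values of 4 of these genes.

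**Figure D5:**
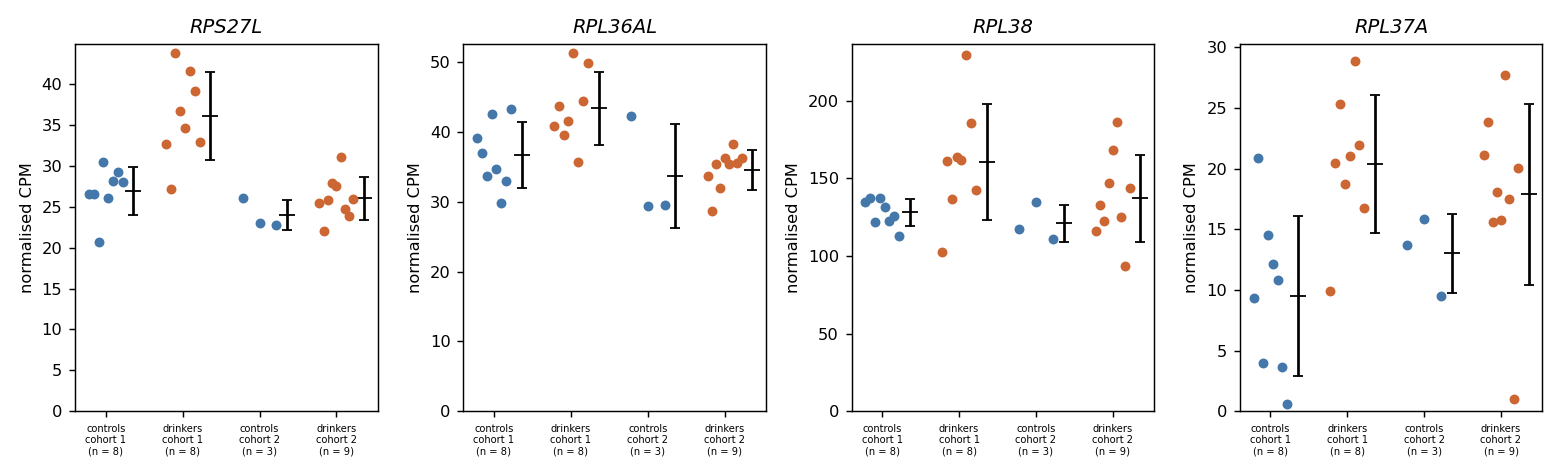
Normalised CPM of RPS27L, RPL36AL, RPL38 and RPL37A for each animal by group and cohort; points are animals, and bars beside them give the mean and SD. RPS27L in cohort 1 shows the clearest separation, 27.2 to 43.7 in drinkers and 20.6 to 30.4 in controls, while cohort 2 animals of both groups lie between 22.0 and 31.1.

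Whether the drinkers differed from controls to another extent in cohort 1 than in cohort 2 was tested as an interaction. In edgeR's test 0 of 65 members passed (0.0145% of all transcripts did), and 0 had an unadjusted p under 0.05 beside 9.62% of all transcripts, while DESeq2 gave 0 and 1 (0.937% and 9.41% of all transcripts). The fitted difference, cohort 1 minus cohort 2, was above 0 for 26 of the 65 members (40.0%, median −0.05) beside 46.3% of all transcripts (−0.04), with 20 of 38 in the large subunit (0.01) and 6 of 27 in the small subunit (−0.11). In the other lists it was above 0 for 55 of 66 oxidative phosphorylation genes (median 0.24), 30 of 37 proteasome subunits (0.21), 52 of 67 mitochondrial ribosomal proteins (0.19), 48 of 71 ribosome assembly factors (0.15), 25 of 36 initiation factors (0.10), 7 of 10 elongation factors (0.09) and 14 of 20 TOP mRNAs (0.02). Among cell type markers it was above 0 for 7 of 9 neuron (0.99), 8 of 13 dopamine neuron (0.19), 4 of 9 microglia (−0.09), 2 of 9 oligodendrocyte (−0.11), 2 of 8 astrocyte (−0.22) and 2 of 8 endothelial markers (−0.26), and their part in the members' values was not tested. The lowest p-values among the members belonged to RPS27L (a difference of 0.30 on the log2 scale, SE 0.15, cohort 1 minus cohort 2), RPL13A (−0.31, SE 0.16) and RPL13 (−0.34, SE 0.20), with adjusted p-values of 0.540 to 0.648. With 3 controls in cohort 2 these standard errors are wide, and the test does not show that the drinkers of both cohorts differed from their controls alike.

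The cohorts themselves were compared with group as a covariate. In edgeR's test 0 of the 65 members passed beside 0.0436% of all transcripts, but 9 (13.8%) had an unadjusted p under 0.05, all lower in cohort 2, beside 9.8% of all transcripts and 4.27% in that direction. The fitted value was below 0 for 54 of the 65 beside 47.2% of all transcripts, with a median of −0.09 beside 0.02 over all transcripts. RPS27L had −0.37 (SE 0.076, adjusted p = 0.0649), RPL36AL −0.26 (SE 0.073) and RPL7A −0.20 (SE 0.058, adjusted p = 0.178 for both). DESeq2's Wald test called these 3, at 0.661% of all transcripts called. RPS27L and RPL36AL are thus the members with the lowest p here, in a comparison that shares its cohort 1 animals with the one above. RPL7A ran from 525 to 718 CPM in cohort 1 drinkers and from 440 to 645 in cohort 2 drinkers, and from 540 to 662 and 498 to 558 in the controls. Among nuclear oxidative phosphorylation genes 61 of 66 were below 0 as well, with a median of −0.16, and among mitochondrial ribosomal proteins 50 of 67, with a median of −0.07. Cell type markers moved too: 7 of 9 neuron markers (median −0.45), 7 of 13 dopamine neuron markers (−0.27), 6 of 9 oligodendrocyte markers (−0.10) and 5 of 9 microglia markers (−0.01) were below 0, and 6 of 8 astrocyte markers (0.09) and 7 of 8 endothelial markers (0.12) above it. An unadjusted p under 0.05 was found for 4 of the 8 astrocyte markers. The summed share ran from 0.739% to 5.01% in cohort 1 and from 0.792% to 2.40% in cohort 2 for neuron markers, and from 0.749% to 1.04% and 0.829% to 1.11% for astrocyte markers. Transcripts with a count numbered 11681 ± 516 (SD, n = 16) in cohort 1 and 12441 ± 220 (SD, n = 12) in cohort 2. The part of these in the members' values, and what sets the cohorts apart, was not tested.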

How the data were processed

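The authors trimmed reads with Trim Galore 0.6.7 and quantified them with Salmon 1.9.0 on Mmul_10 (versions from the submitters' processing notes, which also list DESeq2 1.36.0), and deposited estimated counts, not normalised, with 1 transcript per gene symbol. How that transcript was chosen is not given in the sources used here. All columns were matched to animals by name, and cohorts came from the study's methods and source data, not from the labels. Counts were rounded, 1 row without a symbol (1.16e-05% of counts) was left out, and the filter given in the report, after that of the study's methods, left 13769 transcripts. The main test was edgeR 4.0.16 (TMM, quasi-likelihood, Benjamini-Hochberg at 0.05) on R 4.3.3, checked on simulated data; SE is the size of the log2 fold change divided by the square root of F. Each library is its own animal; identical values made up at most 14.4% of transcripts in any pair. Summed shares and levels had no test. Alternatives used DESeq2 1.42.0, limma 3.58.1, other filters, scaling, a GC trend, cohort terms and left-out animals; those leaving out each of 28 animals, and the TOP list without ribosomal genes, were added after seeing the data. Members and lists were chosen with earlier results of these data known. Named members were those with the 6 lowest p-values in each drinker comparison, the 3 lowest in the other 2, paralogues with partners, the 5 highest and 5 lowest levels, stalk proteins, RPSA, members at 0 or under the filter, and RPL5, RPS19 and RPL10 (RPS6 and RPL11, also in that rule, were not analysed here). Members and TOP genes named for level per length, correlation or evenness of share were chosen after their values were seen. RefSeq's Mmul_10 annotation gave coordinates, lengths (median over transcripts) and windows. Tables used Python 3.11.15, numpy 2.4.6 and pandas 2.3.3. Values of some genes are not reported here.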

Additional observations from a re-analysis of the deposited data

Results flagged for a closer look

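Within each group of a cohort with 8 or 9 animals, single values far from the rest were looked for with Dixon's ratio in the summed share, the subunit ratio and the named members. Of 87 such groups of values 6 held one, where chance gives about 1 in 20 for independent values. Members moved together between animals, and RPL4, flagged in both groups of cohort 1, was at 0 in most animals. The count of 6 therefore cannot be weighed against that rate. In control cohort 1, RPS27L in control 3 (20.6 CPM, next 26.1) lay below its group, and RPL36 in control 4 (108 CPM, next 87.4) and RPL4 in control 8 (0.566 CPM, next 0.224) lay above it. In cohort 1 drinkers, RPL5 in drinker 9 (456 CPM, next 326) and RPL4 in drinker 6 (1.42 CPM, next 0.0974) were far above the others. RPL37A in drinker 16 (1.04 CPM, next 15.6) was far below the other drinkers of cohort 2. Drinker 9 and control 4 had the highest shares of their groups in cohort 1 and drinker 16 the lowest in cohort 2. Whether this bears on the single genes was not tested.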

How the results depend on the processing

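The number of members called was 0 in drinkers against controls over all animals under all 10 other settings and on leaving out each of 28 animals (range 0 to 0). In cohort 1 it became 1 with DESeq2's Wald test, and stayed 0 on leaving out any of 16 animals. Between the cohorts it became 3 with DESeq2's Wald test and 1 with at least 10 counts in every animal (RPS27L, adjusted p = 0.0394). The causes were not tested. For the interaction it was 0 throughout, leaving out controls of cohort 2 included.

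Members with an unadjusted p under 0.05 numbered 7 over all animals but 4 with limma-voom (6.2% beside 5.3% of all transcripts), 11 with cohort as a covariate (16.9% beside 7.1%), 2 in cohort 2 alone (3.1% beside 4.0%), 4 without control 3 (6.2% beside 4.3%), 11 without control 4 (16.9% beside 3.9%) and 12 without drinker 3 or drinker 16 (18.5% beside 4.5% and 4.9%). No named member changed direction in the comparison that named it. Since these members were named by their p-values in the same counts, this is no independent support. The log2 ratio of mean shares, drinkers over controls, was 0.06 and between 0.03 and 0.06 with other denominators or without RPSA. No paired analysis was possible because the labels do not say which control was yoked to which drinker. Counting error limits RPL4, RPS24, RPS29 and RPL17. Values per length depend on RefSeq lengths.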

Other observations

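The ratio of large to small subunit counts, seen only after the values were computed and not tested, lay between 1.39 and 1.43 in the 9 very heavy drinkers and between 1.45 and 1.53 in the 5 heavy drinkers, which did not overlap. Class was uneven over the cohorts, with most very heavy drinkers in cohort 2 and most heavy drinkers in cohort 1. In cohort 1 the very heavy drinkers lay between 1.39 and 1.43 and the heavy drinkers between 1.45 and 1.53. In cohort 2 the very heavy drinkers lay between 1.40 and 1.42, and the 1 heavy drinker was at 1.46. Controls overlapped both classes, from 1.39 to 1.56, and the 2 binge drinkers (1.45 each) and the low drinker (1.46) lay above the very heavy drinkers.

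Among the members' own counts, RPL35A and RPS16 were among those with the most even share, with coefficients of variation over 28 animals of 5.60% and 5.70%. Of members with a mean of at least 20 CPM, RPL27A (21.4%), RPL36AL (18.8%) and RPS27L (18.1%) had the least even share. The last 2 of these are the paralogues.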
